A study of Mus musculus with 84 samples.

Results

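The 8 genes of the opioid peptide and receptor family were followed through RNA sequencing of ventrolateral striatum from 84 mice. They were taken from the table of gene counts by symbol, and 8 of 8 were found among its 43629 genes. Penk, Pdyn, Pnoc and Pomc encode the peptide precursors, and Oprm1, Oprd1, Oprk1 and Oprl1 encode the receptors. The mice were naive adults, described as S4 animals of the SOT and NOT strains, and the labels put each in a High Drinker or a Low Drinker group without saying which strain it came from. The 44 High Drinkers were 21 females and 23 males, and the 40 Low Drinkers were 18 females and 22 males. The labels name no engineered allele, no animal had been treated, and the tissue of each library was dissected by hand. The sample numbers in the titles fall into 3 runs, called sheet sets here, whose meaning the labels do not give. The High Drinker libraries were divided 30, 11 and 3 over sheet sets 1, 2 and 3, and the Low Drinker libraries 18, 19 and 3.

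Endogenous opioids are cut from large precursor proteins inside secretory vesicles. Proenkephalin, from Penk, gives the enkephalins, which act at the delta and mu receptors, and prodynorphin, from Pdyn, gives the dynorphins, which act mainly at the kappa receptor. Pomc gives beta-endorphin along with other hormones, and Pnoc gives nociceptin, whose receptor is the product of Oprl1. Oprm1, Oprd1 and Oprk1 encode the mu, delta and kappa receptors, and all these receptors couple to inhibitory G proteins. In the striatum, medium spiny neurons of the indirect pathway are known as the main source of enkephalin and those of the direct pathway as the main source of dynorphin.

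The libraries held between 22190363 and 41300401 counts, and all 8 genes passed the filter on low counts that left 17071 genes to test. Values are given as CPM, the count of a gene relative to the size of its library after scaling for composition. Defining markers of the tissue were present in all 84 libraries, but over wide ranges, with Drd1 between 14.8 and 382 CPM, Adora2a between 1.91 and 518 CPM and the cortical marker Slc17a7 between 94.4 and 2514 CPM. A group of 5 libraries stood apart from the rest in their correlation with the others, namely High Drinker 17 and Low Drinkers 8, 32, 33 and 34. The 12 markers of medium spiny neurons summed to 1764 to 19903 CPM in High Drinkers, with a median of 7201 CPM, against 1382 to 16447 CPM in Low Drinkers, with a median of 6198 CPM. The 8 markers of cortical glutamatergic neurons summed to 164 to 2673 CPM in High Drinkers, with a median of 1615 CPM, and to 424 to 3202 CPM in Low Drinkers, with a median of 1672 CPM. In bulk tissue, fewer cells of a type and less RNA per cell cannot be told apart.

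To compare genes with each other, CPM was divided by the exon length in the deposited table. On that scale Penk had the highest level at 493 ± 323 CPM per kb (SD, n = 84), above Pdyn in 84 of 84 libraries. Pdyn followed at 41.6 ± 26 CPM per kb and was above Oprl1 in 69 libraries. Among receptors the nociceptin receptor gene led, with Oprl1 at 14 ± 1.86 CPM per kb, above Oprd1 in 83 libraries. Oprd1 stood at 6.26 ± 1.66 CPM per kb and exceeded Oprk1, at 3.73 ± 1.75 CPM per kb, in 71 libraries. Pnoc, at 3.14 ± 1.35 CPM per kb, was not separated from Oprk1, which was the higher in 47 libraries. Pomc, at 1.55 ± 0.43 CPM per kb, was below Pnoc in 78 libraries and above Oprm1, at 0.60 ± 0.33 CPM per kb, in 82. The mu receptor gene thus had the lowest level per length of the family. The exon length of Oprm1 is 8.037 kb over all annotated exons, so transcripts that use only some of them would have their level understated.

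The sequences just before the most upstream annotated start are shown for 3 genes whose levels moved with or against one another across libraries. These are Pdyn, Oprm1 and Oprd1. Promoters at any other start of these genes were not searched. They are from RefSeq on build GRCm38.p6, which shares its coordinates with mm10, and are written 5′ to 3′ on the strand of the gene, with motif matches in capitals. The Pdyn stretch lies at chr2:129699939-129700188 on the minus strand, the Oprm1 stretch at chr10:6758343-6758505 on the plus strand and the Oprd1 stretch at chr4:132144487-132144736 on the minus strand. None overlaps an annotated exon.
Pdyn: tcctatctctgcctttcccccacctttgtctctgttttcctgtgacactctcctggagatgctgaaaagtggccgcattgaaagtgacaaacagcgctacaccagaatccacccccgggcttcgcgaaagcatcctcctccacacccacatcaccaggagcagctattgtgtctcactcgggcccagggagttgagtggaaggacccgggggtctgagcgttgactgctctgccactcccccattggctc
Oprm1: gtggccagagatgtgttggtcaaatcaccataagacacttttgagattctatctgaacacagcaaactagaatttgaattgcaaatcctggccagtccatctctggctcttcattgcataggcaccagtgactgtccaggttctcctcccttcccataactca
Oprd1: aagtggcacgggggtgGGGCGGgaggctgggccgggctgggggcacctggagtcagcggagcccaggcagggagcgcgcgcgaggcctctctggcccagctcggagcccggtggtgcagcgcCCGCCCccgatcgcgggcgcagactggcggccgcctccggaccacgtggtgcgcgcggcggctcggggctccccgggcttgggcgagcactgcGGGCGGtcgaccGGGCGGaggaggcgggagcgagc
The following 5 motifs were searched on both strands: the cAMP response element TGACGTCA, its shorter form TGACG, the AP-1 motif TGANTCA, the TATA box TATAAA and the GC box GGGCGG, with the shorter form contained in the longer one. Of 32851 mouse promoter windows, each of 250 bases, they were found in 1.55%, 17.8%, 6.75%, 12.4% and 32.7%. The Pdyn and Oprd1 stretches have that length. The Oprm1 stretch was cut at the gene start and has 163 bases, so it held fewer places for a match. The Oprd1 stretch had 4 matches to the GC box and none to the other motifs, 34 CpG dinucleotides and a GC content of 80.0%, against a median of 52.4% over all promoters. The Pdyn stretch had 8 CpG dinucleotides, a GC content of 57.2% and no match, and the Oprm1 stretch had no CpG dinucleotide, a GC content of 45.4% and no match. Of the other promoters in the table, that of Oprl1 held a TATA box match and that of Pomc a TATA box and a GC box match. Oprk1, Penk and Pnoc were not in it.

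**Figure D1:**
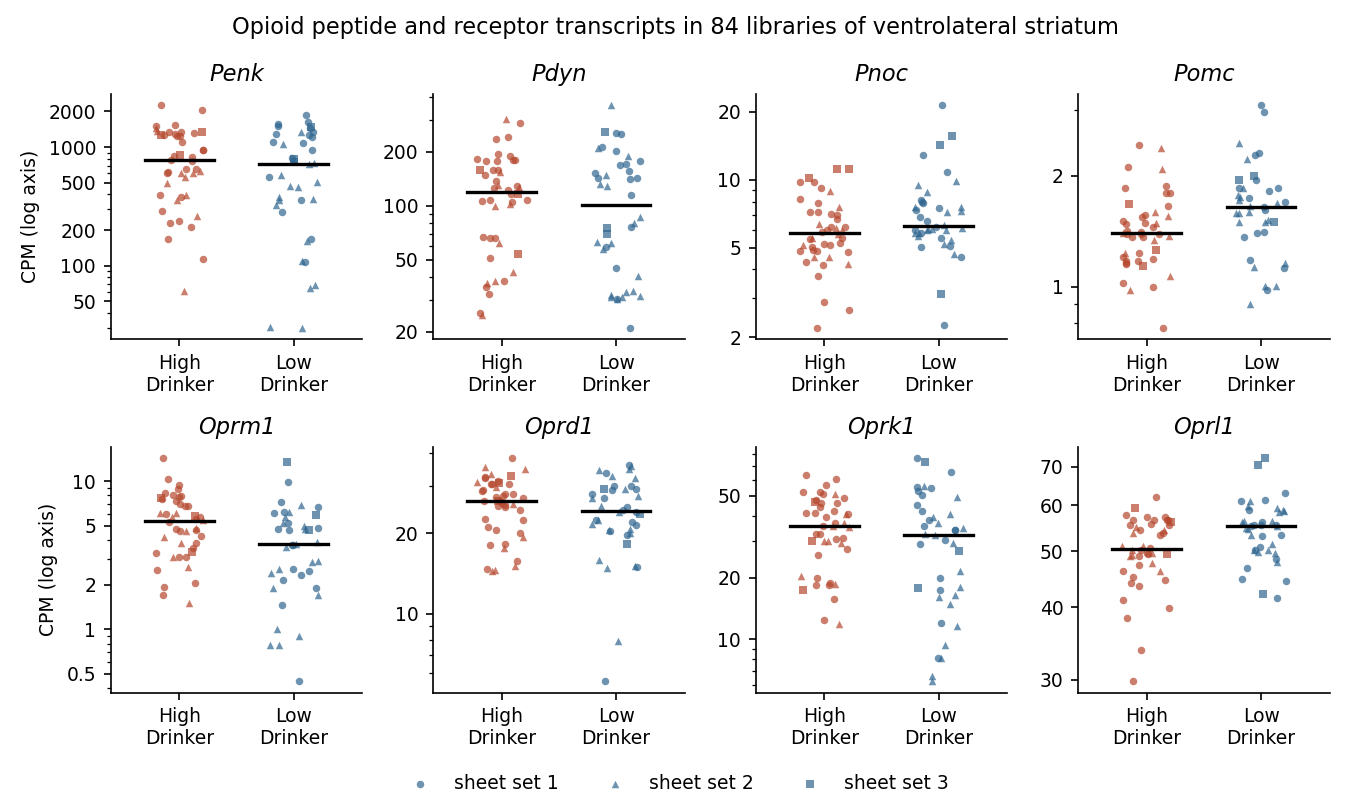
CPM of each gene (log axis) in the 44 High Drinker libraries on the left of each panel and the 40 Low Drinker libraries on the right, 1 point per animal, with the marker shape giving the sheet set and the bar the median. The groups overlap for every gene, and Penk spans 29.7 to 2282 CPM over all libraries.

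None of the 8 genes passed the test between High and Low Drinkers, and 3.94% of the 17071 tested genes did (edgeR quasi-likelihood test with sheet set and sex in the model, Benjamini-Hochberg adjusted p under 0.05). Among only 8 genes, a share of that size can leave none called. DESeq2 and limma-voom also called 0 of the 8. The 8 values were split evenly, with 4 log2 differences above 0 and 4 below and a median of 0.01, against 0.0013 over all tested genes. At an unadjusted p under 0.05 there were 4 of 8 genes, against 18% of all tested genes. Those were Oprm1, with the higher mean in High Drinkers, and Oprl1, Pnoc and Pomc, with the lower. The standard errors below are the log2 difference divided by the root of the F statistic.

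Penk (ENSMUSG00000045573, chr4:4133531-4138819, minus strand, build mm10), the enkephalin precursor, was both the highest and the most variable of the family. High Drinkers ran from 60.9 to 2282 CPM with a median of 775 CPM, and Low Drinkers from 29.7 to 1879 CPM with a median of 726 CPM. Both groups covered most of the same range, and the Low Drinker median was exceeded by 23 of 44 High Drinkers. The means were 853 ± 526 CPM in High Drinkers and 755 ± 531 CPM in Low Drinkers (SD, n = 44 and 40), a log2 difference of 0.08 ± 0.24 (SE, edgeR adjusted p = 0.906). Its 95% interval reached from 0.759-fold to 1.47-fold. The sign was not stable, at -0.18 within sheet set 1 and 0.47 within sheet set 2. A total of 233 exon bases of Penk are shared with A830012C17Rik on the opposite strand, a gene with 325 counts in all against 2138063 for Penk.

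Pdyn (ENSMUSG00000027400, chr2:129686565-129699844, minus strand), the dynorphin precursor, ran from 24.9 to 302 CPM in High Drinkers with a median of 119 CPM, and from 20.9 to 364 CPM in Low Drinkers with a median of 100.4 CPM. Here too the groups overlapped over nearly all of their range, with 29 of 44 High Drinkers over the median of the Low Drinkers. Pdyn averaged 122 ± 68.9 CPM in High Drinkers and 117 ± 81.8 CPM in Low Drinkers, and the log2 difference was -0.03 ± 0.21 (edgeR adjusted p = 0.964, 0.729-fold to 1.32-fold). Within sheet sets 1 and 2 it was -0.08 and 0.14.

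Pnoc (ENSMUSG00000045731, chr14:65400673-65425472, minus strand), the nociceptin precursor, was a low transcript. It lay between 2.19 and 11.2 CPM in High Drinkers with a median of 5.81 CPM, and between 2.27 and 21.5 CPM in Low Drinkers with a median of 6.25 CPM. Of the High Drinkers, 28 of 44 were under the median of the Low Drinkers, and 4 Low Drinkers were above every High Drinker. The means of 6.18 ± 2.14 CPM in High Drinkers and 7.43 ± 3.50 CPM in Low Drinkers differed by -0.29 ± 0.11 on the log2 scale (unadjusted p = 0.0121, edgeR adjusted p = 0.139). The difference was -0.39 within sheet set 1 and -0.16 within sheet set 2, and -0.18 without the 5 libraries that stood apart.

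Pomc (ENSMUSG00000020660, chr12:3954951-3960618, plus strand), the precursor of beta-endorphin, had the fewest reads, with 22 to 77 counts in High Drinker libraries and 28 to 105 in Low Drinker libraries. In CPM this was 0.773 to 2.42 with a median of 1.40 in High Drinkers, and 0.899 to 3.11 with a median of 1.65 in Low Drinkers. The ranges overlapped, but 34 of 44 High Drinkers were below the Low Drinker median. Pomc had the smallest p of the family, at 1.45 ± 0.35 CPM in High Drinkers and 1.68 ± 0.49 CPM in Low Drinkers, with a log2 difference of -0.23 ± 0.08 (unadjusted p = 0.00690, edgeR adjusted p = 0.104). It was -0.31 within sheet set 1 and -0.07 within sheet set 2.

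Among the receptors, Oprm1 (ENSMUSG00000000766, chr10:6758506-7038198, plus strand), the mu receptor gene, ran from 1.5 to 14.3 CPM in High Drinkers with a median of 5.4 CPM, and from 0.444 to 13.5 CPM in Low Drinkers with a median of 3.74 CPM. The low end set the groups apart more than the high end: 1 High Drinker was above every Low Drinker, and 6 Low Drinkers were below every High Drinker. Oprm1 averaged 5.47 ± 2.58 CPM in High Drinkers and 4.07 ± 2.62 CPM in Low Drinkers, with the largest log2 difference of the family at 0.38 ± 0.18 (1.01-fold to 1.66-fold, unadjusted p = 0.0392, edgeR adjusted p = 0.249). It was 0.52 within sheet set 1, 0.37 within sheet set 2 and 0.27 without the libraries that stood apart. In males alone it was 0.77 and in females alone 0.12 (edgeR adjusted p = 0.152 and 0.900). Of the 6 lowest Low Drinkers, 4 are libraries that stood apart, at 0.444 CPM in Low Drinker 8, 0.999 in Low Drinker 32, 0.902 in Low Drinker 33 and 0.787 in Low Drinker 34. In addition, 96 exon bases of Oprm1 are shared with Ipcef1 on the opposite strand, which had 276134 counts in all against 12642 for Oprm1, and the library kits as described do not mark strand.

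Oprd1 (ENSMUSG00000050511, chr4:132110726-132144486, minus strand), the delta receptor gene, ran from 14.4 to 38.3 CPM in High Drinkers with a median of 26.5 CPM, and from 5.57 to 36 CPM in Low Drinkers with a median of 24.3 CPM. Only Low Drinkers, 2 of them, fell below the High Drinker range. The means of 25.8 ± 6.20 CPM in High Drinkers and 24.4 ± 7.18 CPM in Low Drinkers gave a log2 difference of 0.08 ± 0.10 (edgeR adjusted p = 0.740, 0.922-fold to 1.21-fold). On a fixed grid of 10 Mb windows, the gene lies in the window from 130000001 to 140000000 of chromosome 4. There 22 of 164 tested genes passed the test, or 13.4%, against 0% to 6.06% in the windows that hold the other 7 members. The windows were not centred on the members.

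Oprk1 (ENSMUSG00000025905, chr1:5588466-5606131, plus strand), the kappa receptor gene, ran from 11.8 to 63.2 CPM in High Drinkers with a median of 35.7 CPM, and from 6.23 to 76.5 CPM in Low Drinkers with a median of 32.4 CPM. Low Drinkers reached further at both ends, with 6 below and 3 above the whole High Drinker range. Oprk1 averaged 35.6 ± 13.3 CPM in High Drinkers and 32.5 ± 18.6 CPM in Low Drinkers, a log2 difference of 0.06 ± 0.16 (edgeR adjusted p = 0.903, 0.833-fold to 1.30-fold).

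Oprl1 (ENSMUSG00000027584, chr2:181715016-181720985, plus strand), the nociceptin receptor gene, was the steadiest member. It ran from 29.8 to 62 CPM in High Drinkers with a median of 50.5 CPM, and from 41.4 to 72.5 CPM in Low Drinkers with a median of 55.2 CPM. At the low end 5 High Drinkers were below every Low Drinker, and at the high end 3 Low Drinkers were above every High Drinker. The means were 50.3 ± 6.77 CPM in High Drinkers and 54.6 ± 6.62 CPM in Low Drinkers, a log2 difference of -0.11 ± 0.04 (0.876-fold to 0.985-fold, unadjusted p = 0.0139, edgeR adjusted p = 0.151). It was -0.10 within sheet set 1 and -0.12 within sheet set 2.

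**Figure D2:**
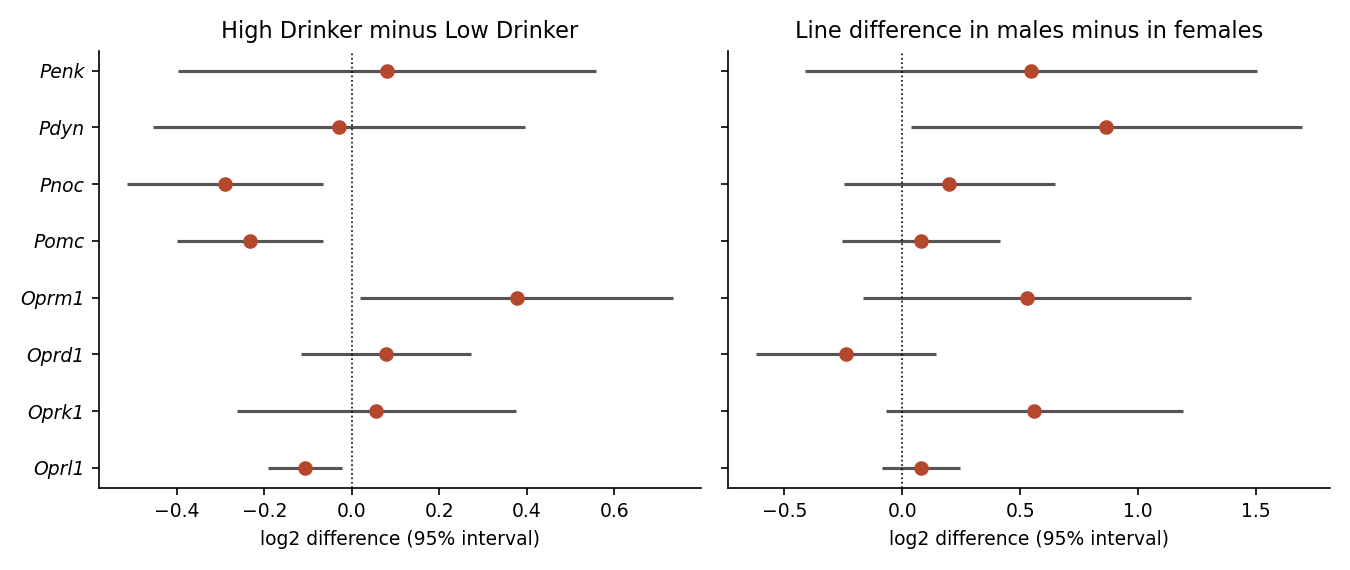
The log2 difference of High Drinkers minus Low Drinkers (left) and the difference of that value in males minus in females (right), as points with 95% intervals, for the 8 genes. The intervals of Oprm1, Oprl1, Pnoc and Pomc leave out 0 on the left and that of Pdyn on the right, but no adjusted p was under 0.05.

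None of the 8 genes differed between males and females (0.0996% of tested genes passed), and none had an unadjusted p under 0.05, against 4.03% of all tested genes. The log2 differences of males minus females ran from -0.20 for Penk to 0.06 for Oprd1. The difference between High and Low Drinkers itself was compared between the sexes. No member passed, and 0% of tested genes did; at an unadjusted p under 0.05 there was 1 member and 5.65% of all genes. The member was Pdyn, for which males and females had opposite signs. It averaged 140 ± 77.1 CPM in High Drinker males (n = 23) and 102 ± 70.6 CPM in Low Drinker males (n = 22). In females it averaged 103 ± 53.9 CPM in High Drinkers (n = 21) and 136 ± 92.5 CPM in Low Drinkers (n = 18). Pdyn was thus higher in High Drinkers among males and higher in Low Drinkers among females. The means of Penk and Oprk1 turned in the same way, with interactions of 0.54 and 0.56 (edgeR unadjusted p = 0.261 and 0.0813). Those of Oprd1 turned in the other way, at -0.24 (edgeR unadjusted p = 0.215). The interaction of Pdyn was 0.87 ± 0.42 on the log2 scale (unadjusted p = 0.0413, edgeR adjusted p = 0.784). With the means of the medium spiny and cortical marker lists in the model it was 0.16 (edgeR adjusted p = 0.972), and without the libraries that stood apart 0.79 (edgeR adjusted p = 0.946).

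The members differed greatly in how much they varied between animals of 1 group. After sheet set, sex and group were taken out, Penk had a standard deviation of 1.24 log2 units, greater than that of 98.6% of tested genes. Pdyn had 0.99, Oprm1 0.83 and Oprk1 0.76, each greater than at least 93.5% of tested genes. Pnoc had 0.51, Oprd1 0.46 and Pomc 0.35. Oprl1, at 0.19, was below the median of 0.25 over all tested genes. The family therefore holds both some of the transcripts that varied most over these libraries and a steady one. The part of tissue makeup in this spread was not tested.

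Variability was also compared between the groups, as the absolute deviation from the median of each group and sex (limma). No member passed, and 0.0117% of tested genes did. Oprk1 was the member with an unadjusted p under 0.05, against 3.95% of all genes: its mean deviation was smaller in High Drinkers than in Low Drinkers, by -0.27 log2 units (unadjusted p = 0.0152, adjusted p = 0.977). The standard deviation of Oprk1 was 0.63 log2 units in High Drinkers and 0.89 in Low Drinkers, and 3 of the 5 libraries that stood apart, Low Drinkers 32 to 34, were the lowest 3 for this gene. For Penk it was 1.15 in High Drinkers and 1.35 in Low Drinkers.

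The series asked how genes vary together as well as how far they differ, so the members were correlated over the 84 libraries on log2 CPM with sheet set, sex and group taken out. Of 28 pairs, 18 passed a two-sided permutation test within group, sex and sheet set with adjustment over the 28 pairs, 10 with a positive and 8 with a negative correlation. The share among pairs of other tested genes was not measured, so whether this count is particular to the family is not known. All values within a pair come from the same libraries and share their depth and their tissue makeup. Penk, Pdyn, Oprk1 and Oprm1 moved together. Penk and Pdyn had r = 0.86 and rho = 0.86, Penk and Oprk1 r = 0.86 and rho = 0.79, and Pdyn and Oprk1 r = 0.84 and rho = 0.83, each with a permutation p of 1e-05, the smallest it can give (adjusted p = 3.50e-05). The correlation of Penk with Pdyn was 0.88 without the 2 libraries farthest from the median, and 0.92 and 0.83 within sheet sets 1 and 2. Oprm1 followed Oprk1 at r = 0.71 (rho = 0.72), Pdyn at 0.54 (rho = 0.56) and Penk at 0.53 (rho = 0.47). These were 0.77, 0.64 and 0.66 without the 2 farthest libraries. The kappa receptor gene and its ligand precursor thus went up and down across animals together, as did the enkephalin precursor.

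Pomc went with the peptide genes of this block, at r = 0.41 with Pdyn (rho = 0.41, adjusted permutation p = 0.000443), with 0.33 and 0.50 within sheet sets 1 and 2, and at r = 0.26 with Penk (rho = 0.30, adjusted permutation p = 0.0286), with 0.29 and 0.19. Pomc and Pnoc had r = 0.23 (rho = 0.24, adjusted permutation p = 0.0408). This was 0.28 and 0.41 within sheet sets 1 and 2, but 0.15 without the 5 libraries that stood apart. Oprm1 and Pnoc had r = -0.44 (rho = -0.34, adjusted permutation p = 0.00237). This was -0.48 and -0.20 within sheet sets 1 and 2, and -0.33 without the 2 farthest libraries. The nociceptin pair, Pnoc and Oprl1, had r = 0.53 and rho = 0.44 (adjusted p = 8.40e-05), at 0.54 within sheet set 1 but -0.05 within sheet set 2, so that it did not hold within both. Oprd1 was the only member that ran against every peptide precursor. With Pnoc it had r = -0.59 (rho = -0.59, adjusted p = 3.50e-05) and with Pomc r = -0.52 (rho = -0.43, adjusted p = 3.50e-05). These correlations were -0.66 and -0.73 within sheet sets 1 and 2 for Pnoc, and -0.49 and -0.60 for Pomc, and they were -0.50 and -0.47 without the 2 farthest libraries. Oprd1 also had r = -0.41 with Pdyn (rho = -0.45) and -0.33 with Penk (rho = -0.30). Within sheet sets 1 and 2 these were -0.24 and -0.66 for Pdyn, and -0.19 and -0.52 for Penk. Oprl1 had r = -0.44 with Penk (rho = -0.53), -0.37 with Oprk1 (rho = -0.41) and -0.35 with Pdyn (rho = -0.40), and these 5 pairs all passed. The mu and delta receptor genes had r = 0.27, which was -0.01 without the 2 farthest libraries, and this pair did not pass.

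Low Drinker 8, a female in sheet set 1, carried several of these extremes at once. It had the lowest Oprm1, at 0.444 CPM, and the lowest Oprd1, at 5.57 CPM, of the 84 libraries. It also had the highest Pnoc, at 21.5 CPM, and the highest Pomc, at 3.11 CPM, while Penk was 1627 CPM. Without the 5 libraries that stood apart, Oprd1 had r = -0.52 with Pnoc and -0.48 with Pomc. At the other side, High Drinker 17 had the highest Penk, at 2282 CPM, and the lowest Oprl1, at 29.8 CPM, with the lowest summed cortical markers of all libraries. Low Drinkers 32 to 34 had 30.3, 29.7 and 68.8 CPM of Penk and the lowest 3 sums of medium spiny neuron markers.

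**Figure D3:**
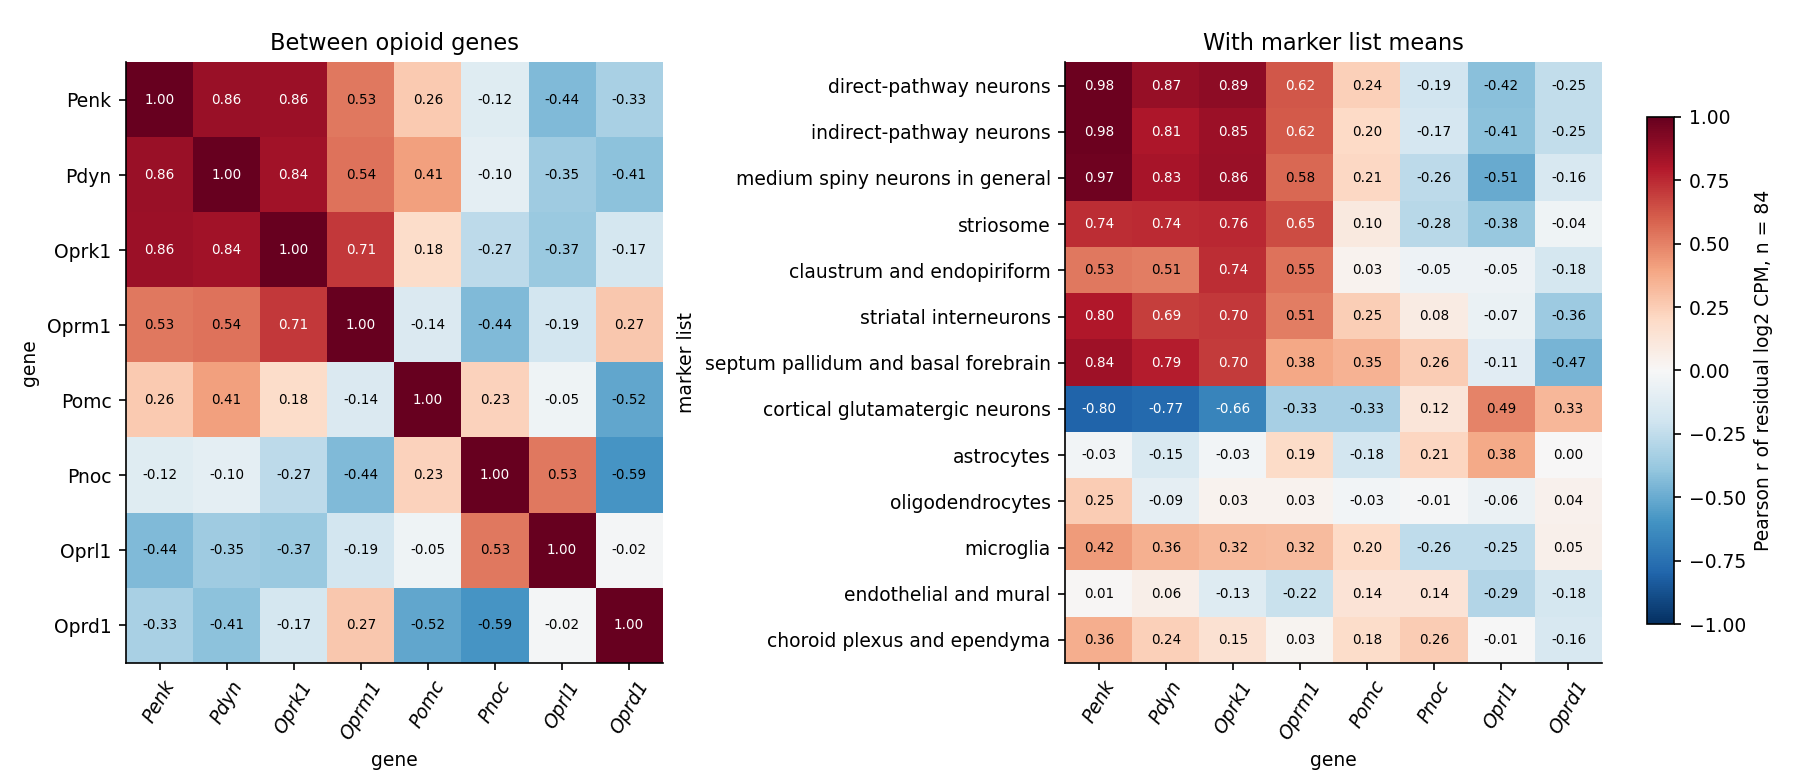
Pearson correlation of residual log2 CPM over 84 libraries between the 8 genes (left) and between each gene and the mean of 13 cell type marker lists (right), from -1 in blue to 1 in red. Penk, Pdyn, Oprk1 and Oprm1 form a positive block on the left and follow the medium spiny neuron lists on the right, while Oprl1 has the opposite signs to Penk there.

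The same pairs were compared between the groups, because the series also asked about differential wiring. None of the 28 differences in r between High and Low Drinkers passed, and none had an unadjusted p under 0.05 (two-sided permutation of group labels within sex and sheet set). Penk and Pdyn had r = 0.87 in High Drinkers and 0.86 in Low Drinkers. Pdyn and Oprk1 had the smallest p of the 28, at r = 0.79 in High Drinkers and 0.89 in Low Drinkers (unadjusted permutation p = 0.0675). Oprm1 and Oprl1 had r = -0.03 in High Drinkers and -0.36 in Low Drinkers (unadjusted permutation p = 0.114).

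**Figure D4:**
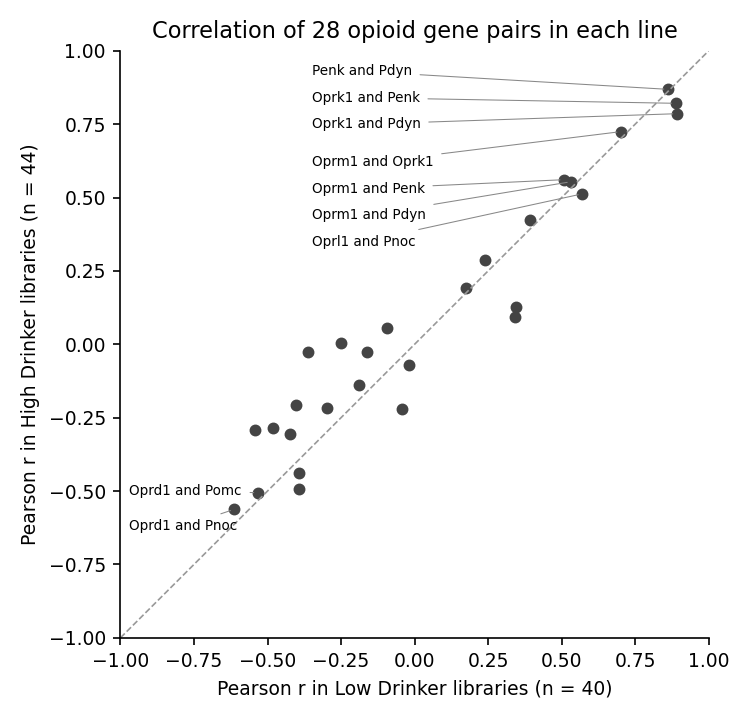
Pearson r of each of the 28 gene pairs in the 44 High Drinker libraries (vertical axis) against that in the 40 Low Drinker libraries (horizontal axis), with the line of equal values dashed and pairs over 0.5 in size over all libraries named. The named pairs lie close to the dashed line, such as Penk with Pdyn at 0.87 in High Drinkers and 0.86 in Low Drinkers.

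Markers of the cell types that the dissection could hold moved with most members. Of 104 relations between the 8 genes and 13 marker lists, 55 passed the same permutation test with adjustment over the 104. The share for other tested genes was not measured. None of the 8 genes is in a list. Penk had r = 0.98 with the 7 direct-pathway markers (rho = 0.96), 0.98 with the 6 indirect-pathway markers in the table (rho = 0.96) and -0.80 with the 8 cortical glutamatergic markers (rho = -0.90). It followed the markers of both medium spiny neuron classes, although enkephalin is known as a marker of the indirect class. Pdyn had r = 0.87 with the direct and 0.81 with the indirect list, and -0.77 with the cortical list. Oprk1 had r = 0.89, 0.85 and -0.66 with these lists, and Oprm1 0.62, 0.62 and -0.33. With the 5 striosome markers in the table Oprm1 had r = 0.65, where Oprk1 had 0.76, Pdyn 0.74 and Penk 0.74. Without the libraries that stood apart, the values of Oprm1 were 0.63 with the striosome, 0.64 with the direct and 0.64 with the indirect list.

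Oprl1 leaned to the other side. Oprl1 had r = -0.51 with the 12 general medium spiny neuron markers and 0.49 with the cortical ones, though the cortical value was 0.64 within sheet set 1 and 0.17 within sheet set 2. Oprd1 had r = -0.47 with the markers of septum, pallidum and basal forebrain. It had -0.36 with the striatal interneuron list and 0.33 with the cortical list, and all of these passed. The cortical value was 0.23 without the libraries that stood apart. With the direct, indirect and general medium spiny lists Oprd1 had -0.25, -0.25 and -0.16, which did not pass. Within sheet set 1 these were -0.09, -0.08 and -0.04, and within sheet set 2 -0.48, -0.45 and -0.39. Pomc had r = 0.35 with the septal list and -0.33 with the cortical list, both past the test, and 0.24, 0.20 and 0.21 with the direct, indirect and general medium spiny lists, which did not pass. Pnoc had r = 0.26 with the septal list, -0.26 with the general medium spiny list and -0.28 with the striosome list, and these 3 passed. Within sheet sets 1 and 2 the septal value was 0.30 and 0.19. The medium spiny value was -0.33 and -0.00038 and the striosome value -0.36 and -0.095, so these were close to 0 in sheet set 2.

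**Figure D5:**
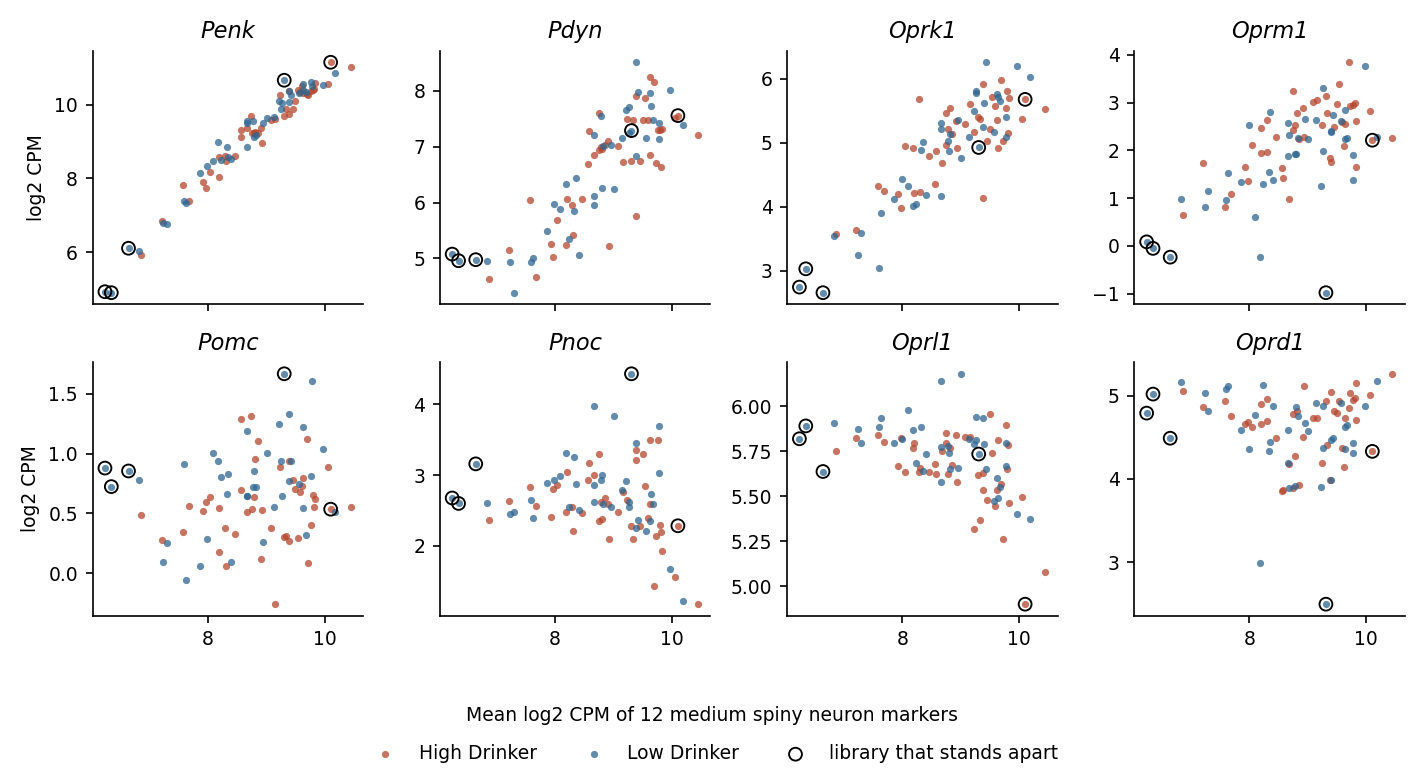
log2 CPM of each gene in each of 84 libraries against the mean log2 CPM of the 12 general medium spiny neuron markers, with High Drinkers and Low Drinkers in different colours and rings around the 5 libraries that stood apart. Penk lies along a narrow band over the whole range (r = 0.97 after sheet set, sex and group), Oprk1 and Pdyn follow more loosely, and Oprd1 and Pnoc show no such band.

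Taking the means of the general medium spiny and cortical lists out as well removed 95% of the remaining variance of Penk, 74.3% of that of Oprk1, 71.7% of that of Pdyn and 37.9% of that of Oprm1. It removed 27.6% for Oprl1, 14.1% for Oprd1, 12.2% for Pomc and 9.34% for Pnoc. What was left was arranged differently. Penk and Oprd1 then had r = -0.76, against -0.33 before, and Penk and Pnoc 0.62, against -0.12 before. Penk and Oprk1 had 0.19, against 0.86 before, whereas Pdyn and Oprk1 kept 0.53 and Oprm1 and Oprk1 0.51. Oprl1 and Penk turned to 0.31 (adjusted permutation p = 0.0209), against -0.44 before. Oprm1 and Penk had -0.14 (adjusted permutation p = 0.227), against 0.53 before. Oprm1 and Oprd1 had 0.39 (adjusted permutation p = 0.00545), against 0.27 before. After this step Penk had r = 0.71 with the striatal interneuron list, 0.70 with the indirect, 0.59 with the direct and 0.55 with the septal list. Pdyn had -0.54 with the oligodendrocyte, 0.53 with the direct and 0.44 with the interneuron list. Pnoc had 0.78 with the septal, 0.56 with the interneuron, 0.39 with the indirect and 0.31 with the direct list. Oprl1 had 0.64 with the septal list, Oprk1 had 0.74 with the claustrum list, and Oprd1 had -0.61 with the striatal interneuron list. The sign of Oprl1 turned for the direct list, at 0.43 against -0.42 before, and for the indirect list, at 0.31 against -0.41 before. Oprm1 had 0.42 with the striosome and 0.40 with the direct list, and Pomc had 0.31 with the striatal interneuron list. These are correlations over libraries, and the part of tissue makeup in them was not tested.

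The genes whose residual levels were most like each member were looked up among 13463 protein-coding genes with a mean of at least 1 CPM, by Pearson r over the 84 libraries. For Penk these were Adora2a, an adenosine receptor gene, at r = 0.98, Rgs9 at 0.98 and Gpr6 at 0.98, all of which are in the marker lists. For Pdyn they were Dclk3 at 0.95, Tac1, the substance P precursor, at 0.94 and Pdxk at 0.94, and for Oprk1 they were Gnb4 at 0.92, Pde1c at 0.92 and Strip2 at 0.91. Of these, Tac1 is in the direct-pathway list and Gnb4 is 1 of the 4 claustrum markers. Penk had 371 genes above r = 0.8, Pdyn 300 and Oprk1 209. Oprm1 was most like Sv2c, a synaptic vesicle protein gene, at 0.93, followed by Zc3h12c at 0.92 and Caln1 at 0.90, and Oprd1 was most like Sntb2 at 0.91, Ndst1 at 0.88 and Egr3, an activity-regulated transcription factor gene, at 0.88. Oprl1 was nearest to the kainate receptor gene Grik1 at 0.81, then Bcat1 at 0.80 and Tmem132c at 0.79. Pnoc was nearest to the transcription factor gene Zic2 at 0.79, Resp18 at 0.76 and Tspan33 at 0.75, and Pomc to Bex3 at 0.68, Rpl10a at 0.68 and Mbd3 at 0.67. No gene reached 0.8 with Pnoc or Pomc.

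A further 3 lists of genes that make, remove or relay the opioid signal were read from the same fit, with 3 of 65 past the test between High and Low Drinkers, where 3.94% of all tested genes passed, 1.86% as higher and 2.08% as lower. Of the 12 genes for precursor processing, 1 was lower in High Drinkers and none higher, with a list median of -0.01 on the log2 scale. It was Scg5, which encodes the chaperone 7B2 of the prohormone convertase PC2. Scg5 ran from 144 to 424 CPM in High Drinkers with a median of 286 CPM, and from 147 to 587 CPM in Low Drinkers with a median of 330 CPM. Although the ranges overlapped, 39 of 44 High Drinkers were below the Low Drinker median. It averaged 270 ± 69.3 CPM in High Drinkers and 341 ± 104 CPM in Low Drinkers, a log2 difference of -0.33 ± 0.10 (edgeR adjusted p = 0.0314). Without the libraries that stood apart the difference was -0.31 (edgeR adjusted p = 0.0649). The convertase gene itself, Pcsk2, averaged 447 ± 72.1 CPM in High Drinkers and 476 ± 105 CPM in Low Drinkers (edgeR adjusted p = 0.570), and the carboxypeptidase gene Cpe 1737 ± 129 CPM in High Drinkers and 1732 ± 111 CPM in Low Drinkers (edgeR adjusted p = 0.994).

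None of the 12 peptide breakdown genes passed, with a list median of 0.04 and 9 of 12 log2 differences above 0. Mme, the gene of the enkephalin-cleaving peptidase neprilysin, averaged 33.2 ± 17.8 CPM in High Drinkers and 28.5 ± 17 CPM in Low Drinkers (edgeR adjusted p = 0.777). Of the 41 genes for receptor transduction, 1 was higher and 1 lower in High Drinkers, with a list median of 0.01. Arrb1, which encodes beta-arrestin 1, a protein that uncouples activated receptors from their G proteins, averaged 434 ± 39.3 CPM in High Drinkers and 404 ± 39.6 CPM in Low Drinkers, and was 0.12 ± 0.03 higher on the log2 scale (edgeR adjusted p = 0.0161). In 31 of 44 High Drinkers it was over the median of the Low Drinkers. Gng3, a G protein gamma subunit gene, averaged 185 ± 30.1 CPM in High Drinkers and 216 ± 42.7 CPM in Low Drinkers, with a log2 difference of -0.18 ± 0.05 (edgeR adjusted p = 0.0384). In 35 of 44 High Drinkers it was under the median of the Low Drinkers. Without the libraries that stood apart the values were 0.11 for Arrb1 (edgeR adjusted p = 0.0198) and -0.14 for Gng3 (edgeR adjusted p = 0.160).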

How the data were processed

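Per the labels' protocols, RNA from frozen, hand-dissected ventrolateral striatum was amplified with an Ovation kit and sequenced as single-end reads. The tools were STAR, FastQC, Subread's featureCounts and edgeR, on build mm10, per the submitters' processing notes. The authors deposited raw counts per gene. Amplified cDNA holds duplicate molecules that such counts cannot tell apart. The members and lists were chosen with earlier results of these data known.

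Counts were tested with edgeR 4.0.16 (TMM, filterByExpr, quasi-likelihood test, all 84 libraries, sheet set, sex and group in the model), with Benjamini-Hochberg adjustment over 17071 genes and a threshold of 0.05. The scripts were first tested on counts made with known changes. Spread was tested with limma 3.58.1. Correlations used log2 CPM (prior count 2) and 100000 permutations. Named genes were the 8 members, up to 3 genes past the test in each list, and the 3 genes most like each member; markers, Pcsk2, Cpe and Mme were named in addition, after their values were seen. Each animal gave 1 library. Libraries stood apart when their median rank correlation with the others was over 3 median absolute deviations low. Alternatives were DESeq2 1.42.0, limma-voom, other scaling and filters, single sheet sets and sexes, marker covariates, and libraries left out.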

Additional observations from a re-analysis of the deposited data

How the results depend on the processing

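No member passed the test between High and Low Drinkers under any of the 15 alternatives, in the 6 for sex, the 4 for the difference between the sexes or the 3 for spread. Oprm1 stayed above 0 and Oprl1, Pnoc and Pomc below 0 in all 15, with lowest adjusted p-values of 0.147, 0.0849, 0.114 and 0.0680. The signs of the other members turned under some, and the cause was not tested. The log2 difference of Oprd1 was -0.0650 in males alone. That of Oprk1 was -0.0409 in sheet set 1 alone, -0.19 in females alone and -0.0356 without the libraries that stood apart. That of Penk was -0.18 in sheet set 1 alone, -0.18 in females alone, -0.0946 with marker list covariates and -0.0266 without the libraries that stood apart. That of Pdyn was 0.0566 without the sheet set term, 0.0338 with limma-voom, 0.14 in sheet set 2 alone, 0.00873 without sheet set 3 and 0.50 in males alone. Of the 65 pathway genes, 0 passed in sheet set 1, sheet set 2, females or males alone, where fewer libraries were tested, 5 with marker list covariates (Scg5, Gng3, Arrb1, Kcnj6 and Rgs10) and 1 without the libraries that stood apart (Arrb1). Gng3 also missed with no filter on low counts (adjusted p = 0.0518) and Scg5 with limma-voom (adjusted p = 0.0510). Of all tested genes 672 passed, against 79 in each of sheet sets 1 and 2, 35 in females, 107 in males, 425 without the libraries that stood apart and 1061 with marker list covariates. The count of correlated pairs was 16 to 19 over 5 alternatives, that of marker relations 54 to 57 over 4, and that of pairs that differed between groups 0 in all 4. The Spearman alternatives, most of those for the pathway genes, and the marker covariates and left-out libraries for the sex tests were added after seeing the data. Depth limits the low genes: Pomc had 22 to 105 counts per library and Oprm1 15 to 413. No paired analysis was possible because the labels give no replicate numbers that the groups share.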

Other observations

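The level of Pomc was read in the libraries richest in transcripts of other hypothalamic and pituitary peptides. Low Drinker 2 held 4951 counts of Pmch, which encodes melanin-concentrating hormone, where the next highest library held 25, and 2052 counts of Hcrt, the orexin precursor gene, where the next highest held 6. Pomc stood at 1.5 CPM there, at rank 41 of 84 from the lowest. The pituitary hormone genes Prl and Gh were highest in High Drinker 35, at 183 and 136 counts, with 148 and 117 in the next highest library of each. In High Drinker 35 Pomc was 2.37 CPM, at rank 80 from the lowest. Oxt was highest in Low Drinker 3, at 2735 counts against 1812 in the next highest, and there Pomc was 1.95 CPM, at rank 73. The part of such tissue in the level of Pomc was not tested.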
